A study of Mus musculus with 9 samples.

Results

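The semaphorins and their plexin and neuropilin receptors were read out in the midbrain of Gpr161 mutant mouse fetuses. Members were the genes whose symbol matched Sema3a to Sema7g, the plexins Plxna to Plxnd, or Nrp1 or Nrp2, which found 31 of the 21356 named genes. These were 20 semaphorin ligands, 9 plexins and 2 neuropilins, and no symbol was repeated. Poly-A RNA was sequenced from midbrain dissected at E13.5 from C57BL/6 fetuses, with 3 fetuses in each of 3 genotypes. The floxed control was Gpr161 f/f without Cre, and the Cre control was Gpr161 f/+;Wnt1-Cre, in which cells with active Cre lose 1 of the 2 alleles. The Gpr161 cKO was Gpr161 f/f;Wnt1-Cre, which the sample titles spell with Gpt161. All 3 genotypes carry at least 1 floxed allele. Wnt1-Cre is active in the dorsal midbrain and in the neural crest lineage and not in every cell of the dissected tissue. Gpr161, the targeted gene, is an orphan receptor of the primary cilium that restrains Shh signaling.

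Semaphorins are secreted, membrane-bound or GPI-anchored guidance proteins that steer axons, migrating neurons and blood vessels. Class 3 semaphorins are secreted and mostly bind a neuropilin, which holds a type A plexin as the signaling chain, whereas most membrane-bound semaphorins bind plexins directly. Plexins carry a cytoplasmic GTPase-activating domain for Rap proteins, and their activation usually collapses the growth cone.

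Of 11 semaphorin ligands of classes 4, 6 and 7, 9 were lower in the Gpr161 cKO midbrain than in the floxed control, whereas the ligands Sema3a and Sema5b were higher. These classes were put together after the values were seen. The log2 fold changes were modest, from -0.48 to -0.22 for the members that fell. Of the 30 members tested, 13 passed an adjusted p of 0.05 (limma, Benjamini-Hochberg over 14029 genes), 11 lower and 2 higher, where 38.3% of all genes passed, 18.8% lower and 19.5% higher. None of the 30 was also changed by more than 1.5-fold, against 2.92% of all genes. The median log2 fold change of the members was -0.16, and that of all genes tested was 0.01. Against the Cre control, 3 of the 11 ligands of classes 4, 6 and 7 were called lower, where 4.85% of all genes were. The remaining member, Plxnb3, stayed below the expression minimum in every library, with log2 values between 3.17 and 3.32, where the minimum lay between 4.73 and 4.78.

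**Figure D1:**
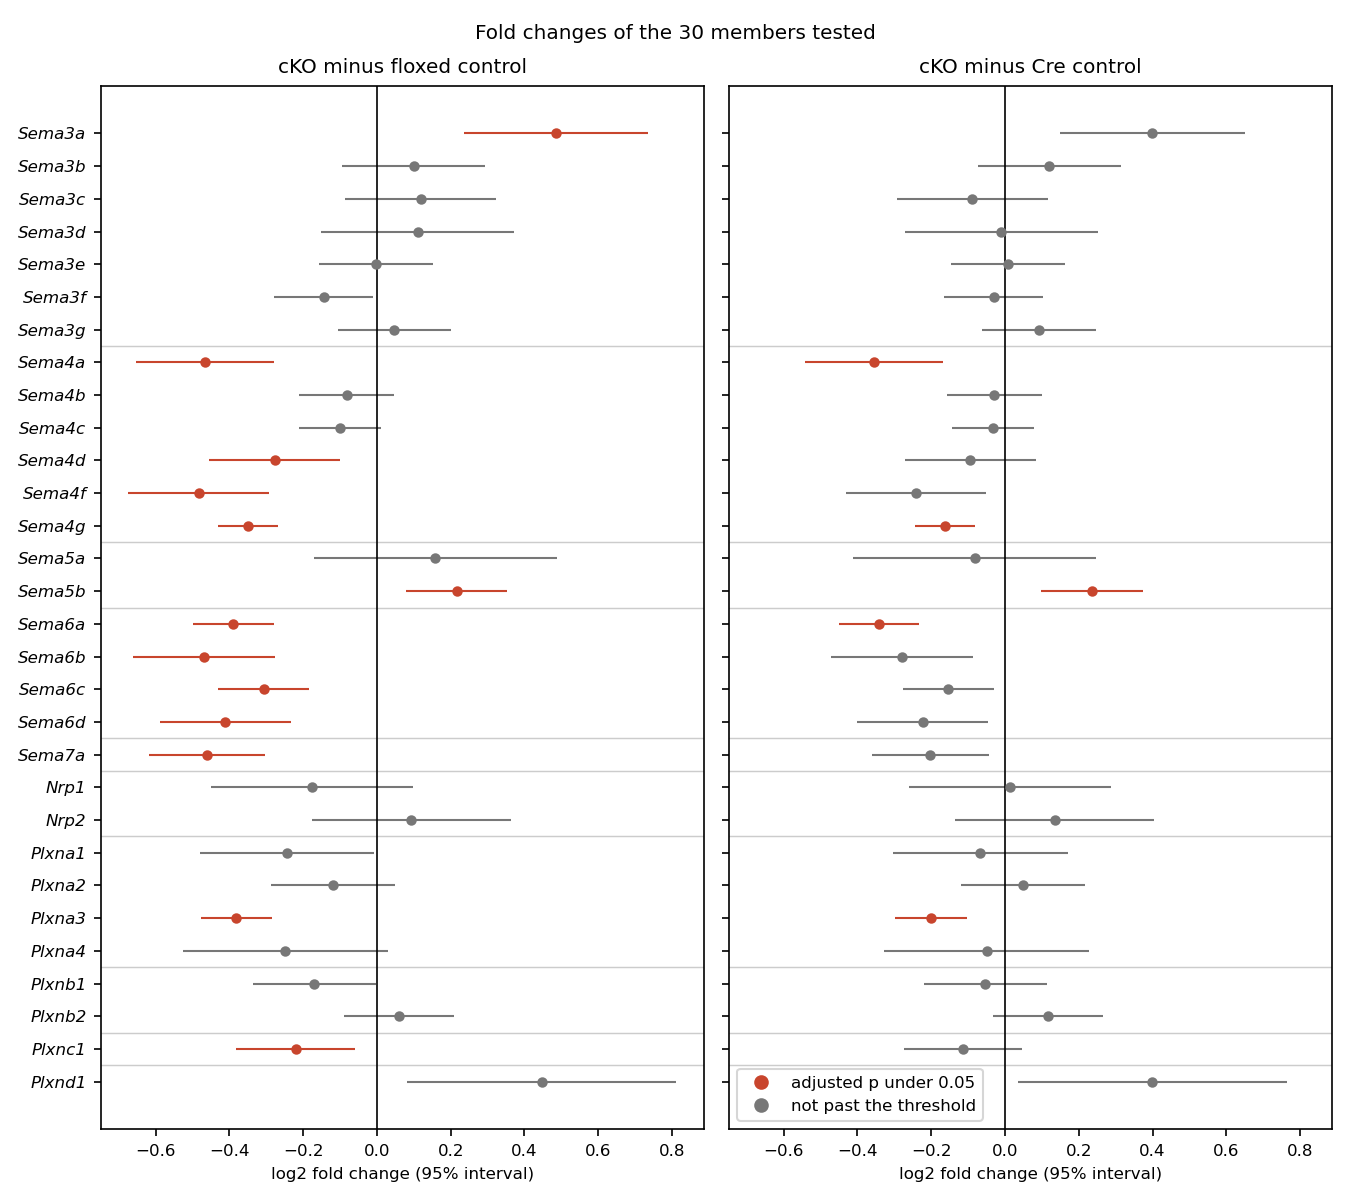
Log2 fold change (x axis) of each of the 30 members tested (y axis), cKO minus floxed control on the left and cKO minus Cre control on the right, with points for the limma estimate and bars for its 95% interval. Of the members to the left of 0, 11 passed an adjusted p of 0.05 on the left side and 4 on the right side, and none lies beyond a log2 fold change of 0.58 in size.

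The table holds log2 values normalized between libraries, and the sequencing depth of the libraries is unknown. Gpr161 was at 11.80, 11.74 and 11.78 in the floxed control, 11.77, 11.91 and 11.96 in the Cre control and 11.74, 11.95 and 11.94 in the cKO. The 1 value per gene does not separate the deleted exons, so it does not check the labels. Gli1, a target gene of Shh signaling, was between 9.60 and 9.80 in the cKO-labelled libraries and between 8.55 and 8.71 in the others. The midbrain genes Otx2 and En1 were present in every library, at 10.50 or higher. The Cre control replicate 1 stood apart: it was the lowest Cre control library for 28 of the 30 members, which held for 45.5% of all genes. Its median difference from the other Cre control libraries was -0.20 for the members and -0.02 for all genes. It and the floxed control replicate 2 had Y-linked Ddx3y at 7.89 and 7.95, whereas the other libraries lay between 9.37 and 10.14. The labels name no litter or batch, and p-values measure the spread between these libraries.

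Promoter windows, from 250 bases before to 50 bases after each start in RefSeq (GRCm38.p6), were matched for 26 of the 31 members, in 37 windows. The E-box CAGCTG, which reads the same on both strands and is bound by proneural transcription factors, was in the window of 6 of the 26, or 23.1% (95% Wilson interval 11.0 to 42.1), against 18.3% of all genes with a window. It lay in Plxnb3, Sema3g, Sema4d, Sema4g, Sema6c and Sema7a. The Gli site GACCACCCA was in 0 of the 26 on either strand (Wilson interval up to 12.9%), and in 0.289% of all genes. The E-box CAGATG was in Sema3c and Sema4a, where 19.2% of all genes had it, and the Tcf/Lef site ATCAAAG was in Nrp2, where 4.29% had it. Stretches from 4 of the windows are shown. Those of Sema6c and Sema7a, at chr3:95164151-95164250 and chr9:57939872-57939971, hold the E-box, in capitals. Both genes were lower in the cKO than in the floxed control, and neither was called against the Cre control. Of the other members with CAGCTG, Sema4d and Sema4g were lower than in the floxed control, Sema3g was not called and Plxnb3 was not tested. The stretches of Plxna3, the receptor with the smallest p, and of Sema3a, the ligand that rose most, are at chrX:74328966-74329065 and chr5:13396684-13396783 with every CG pair in capitals. All 4 lie on the plus strand and are written 5′ to 3′.
Sema6c: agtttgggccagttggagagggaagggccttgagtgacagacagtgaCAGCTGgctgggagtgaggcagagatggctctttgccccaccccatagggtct
Sema7a: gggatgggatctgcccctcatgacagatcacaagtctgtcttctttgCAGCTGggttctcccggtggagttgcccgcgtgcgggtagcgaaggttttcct
Plxna3: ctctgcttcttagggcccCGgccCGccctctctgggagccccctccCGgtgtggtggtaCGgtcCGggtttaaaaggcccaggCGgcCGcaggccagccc
Sema3a: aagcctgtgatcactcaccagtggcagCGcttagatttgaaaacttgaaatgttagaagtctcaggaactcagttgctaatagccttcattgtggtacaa
The Sema6c stretch lies in an intron of the gene in GENCODE M21 and the Sema7a stretch lies upstream of the gene. In these 100 bases Plxna3 had 72% G or C and 7 CG pairs, and Sema3a, whose stretch is in an intron of the gene, had 42% and 1 CG pair. These letters describe the windows, and no binding was measured.

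Class 6 semaphorins are transmembrane ligands, best known for binding Plxna2 and Plxna4. All 4 genes were lower in the cKO than in the floxed control, with no overlap of the libraries. Of all genes, 18.8% were called lower in this comparison and 27.3% had every cKO library below the floxed control. Against the Cre control 1 of the 4, Sema6a, was called lower, where 4.85% of all genes were. Sema6a was at 11.55, 11.39 and 11.49 in the floxed control, 11.36, 11.46 and 11.46 in the Cre control and 11.06, 11.11 and 11.08 in the cKO. Every cKO library was below every control library of either kind. Sema6a fell by 23.6% against the floxed control (log2 fold change -0.39 ± 0.05 SE, adjusted p = 6.52e-04, limma), and its log2 difference from the Cre control was -0.34 ± 0.05 SE (adjusted p = 0.00679). The 2 control groups differed by -0.05 (95% interval -0.16 to 0.06). It was the only member whose call against the Cre control held under all 19 alternative settings. Fewer cells of a type and less RNA per cell cannot be told apart in such bulk tissue, for this gene or for any other.

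Sema6b, at chr17:56123085-56140343 (GRCm38), was at 10.15, 10.07 and 10.19 in the floxed control, 9.79, 10.05 and 10.00 in the Cre control and 9.49, 9.72 and 9.80 in the cKO. The Cre control replicate 1 lay among the cKO libraries, and the floxed control libraries were all higher. Sema6b fell by 27.8% against the floxed control (log2 fold change -0.47 ± 0.09 SE, adjusted p = 0.00285, limma). Against the Cre control its difference was -0.28 ± 0.09 (adjusted p = 0.0686). That p was 0.0146 without the Cre control replicate 1 and up to 0.225 in the other alternative settings. Without that replicate the share of all genes called in this comparison rose from 9.72% to 23.5%.

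Sema6c, at chr3:95160457-95174024, was the ligand with the highest level per kb of transcript. Its values were 11.67, 11.68 and 11.67 in the floxed control, 11.40, 11.62 and 11.54 in the Cre control and 11.29, 11.38 and 11.42 in the cKO. The cKO libraries were all below the floxed control and overlapped the Cre control through its replicate 1. Sema6c fell by 19.2% against the floxed control (log2 fold change -0.31 ± 0.06 SE, adjusted p = 0.00266, limma). Its difference from the Cre control was -0.15 ± 0.06 (adjusted p = 0.104, 0.00940 without the Cre control replicate 1, and up to 0.310 in other settings). Sema6d, at chr2:124089969-124667770, was at 10.56, 10.65 and 10.72 in the floxed control, 10.30, 10.56 and 10.52 in the Cre control and 10.12, 10.34 and 10.24 in the cKO. Here too the cKO overlapped the Cre control through its replicate 1 and not the floxed control. Sema6d fell by 24.8% against the floxed control (log2 fold change -0.41 ± 0.08 SE, adjusted p = 0.00357, limma). It was -0.22 ± 0.08 from the Cre control (adjusted p = 0.0998, 0.0140 without the Cre control replicate 1, and up to 0.306 in other settings).

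Class 4 semaphorins are transmembrane ligands that bind mainly type B plexins. In all 6 the cKO libraries lay below every floxed control library, and 4 passed the test. Over the 30 members, the cKO libraries were all lower for 16 and all higher for 3, against 27.3% and 29.9% of all genes. Sema4g, at chr19:44989101-45003397, was at 10.87, 10.85 and 10.87 in the floxed control, 10.65, 10.72 and 10.66 in the Cre control and 10.48, 10.55 and 10.51 in the cKO. The 3 genotypes formed 3 separate steps, with the Cre control in between. Sema4g fell by 21.5% against the floxed control (log2 fold change -0.35 ± 0.04 SE, adjusted p = 3.35e-04, limma), the smallest p among the members, and by 10.7% against the Cre control (-0.16 ± 0.04 SE, adjusted p = 0.0279). The Cre control itself was -0.19 from the floxed control (adjusted p = 0.129).

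Sema4f, at chr6:82911885-82939769, was at 9.02, 8.87 and 8.95 in the floxed control, 8.51, 8.84 and 8.76 in the Cre control and 8.42, 8.41 and 8.56 in the cKO. The Cre control replicate 1 lay within the cKO range, and the other 2 lay between the groups. Sema4f fell by 28.5% against the floxed control (log2 fold change -0.48 ± 0.09 SE, adjusted p = 0.00240, limma), the largest decrease among the members. Its difference from the Cre control was -0.24 ± 0.09 (adjusted p = 0.0981, 0.00984 without the Cre control replicate 1, and up to 0.265 in other settings). Sema4a, at chr3:88435959-88461182, was at 9.48, 9.29 and 9.27 in the floxed control, 9.18, 9.26 and 9.27 in the Cre control and 8.73, 8.87 and 9.04 in the cKO. All cKO libraries were below all control libraries. Sema4a fell by 27.6% against the floxed control (log2 fold change -0.47 ± 0.08 SE, adjusted p = 0.00258, limma), and its log2 difference from the Cre control was -0.36 ± 0.08 SE (adjusted p = 0.0320).

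Sema4d, at chr13:51685529-51793747, encodes a ligand of Plxnb1. It was at 8.31, 8.09 and 8.37 in the floxed control, 8.13, 8.13 and 7.96 in the Cre control and 7.97, 7.95 and 8.02 in the cKO. The floxed control replicate 2 came within 0.1 of the cKO, and the Cre control overlapped it. Sema4d fell by 17.5% against the floxed control (log2 fold change -0.28 ± 0.08 SE, adjusted p = 0.0210, limma), a call lost without the floxed control replicate 1 or 3 or the cKO replicate 1 or 2 (adjusted p between 0.0625 and 0.0836). Sema4b and Sema4c were -0.08 and -0.10 from the floxed control, with adjusted p values of 0.290 and 0.140, and neither passed the test. The Sema4c exons overlap those of D430040D24Rik on the other strand by 334 bases.

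Sema7a, at chr9:57940112-57962865, is the only class 7 semaphorin. It encodes a GPI-anchored ligand of Plxnc1 and of integrins. It was at 9.65, 9.70 and 9.81 in the floxed control, 9.32, 9.60 and 9.46 in the Cre control and 9.23, 9.27 and 9.28 in the cKO. Again the genotypes formed 3 steps with no overlap. Sema7a fell by 27.3% against the floxed control (log2 fold change -0.46 ± 0.07 SE, adjusted p = 0.00133, limma). Its difference from the Cre control was -0.20 ± 0.07 (adjusted p = 0.0949, 0.0138 without the Cre control replicate 1, and up to 0.255 in other settings).

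**Figure D2:**
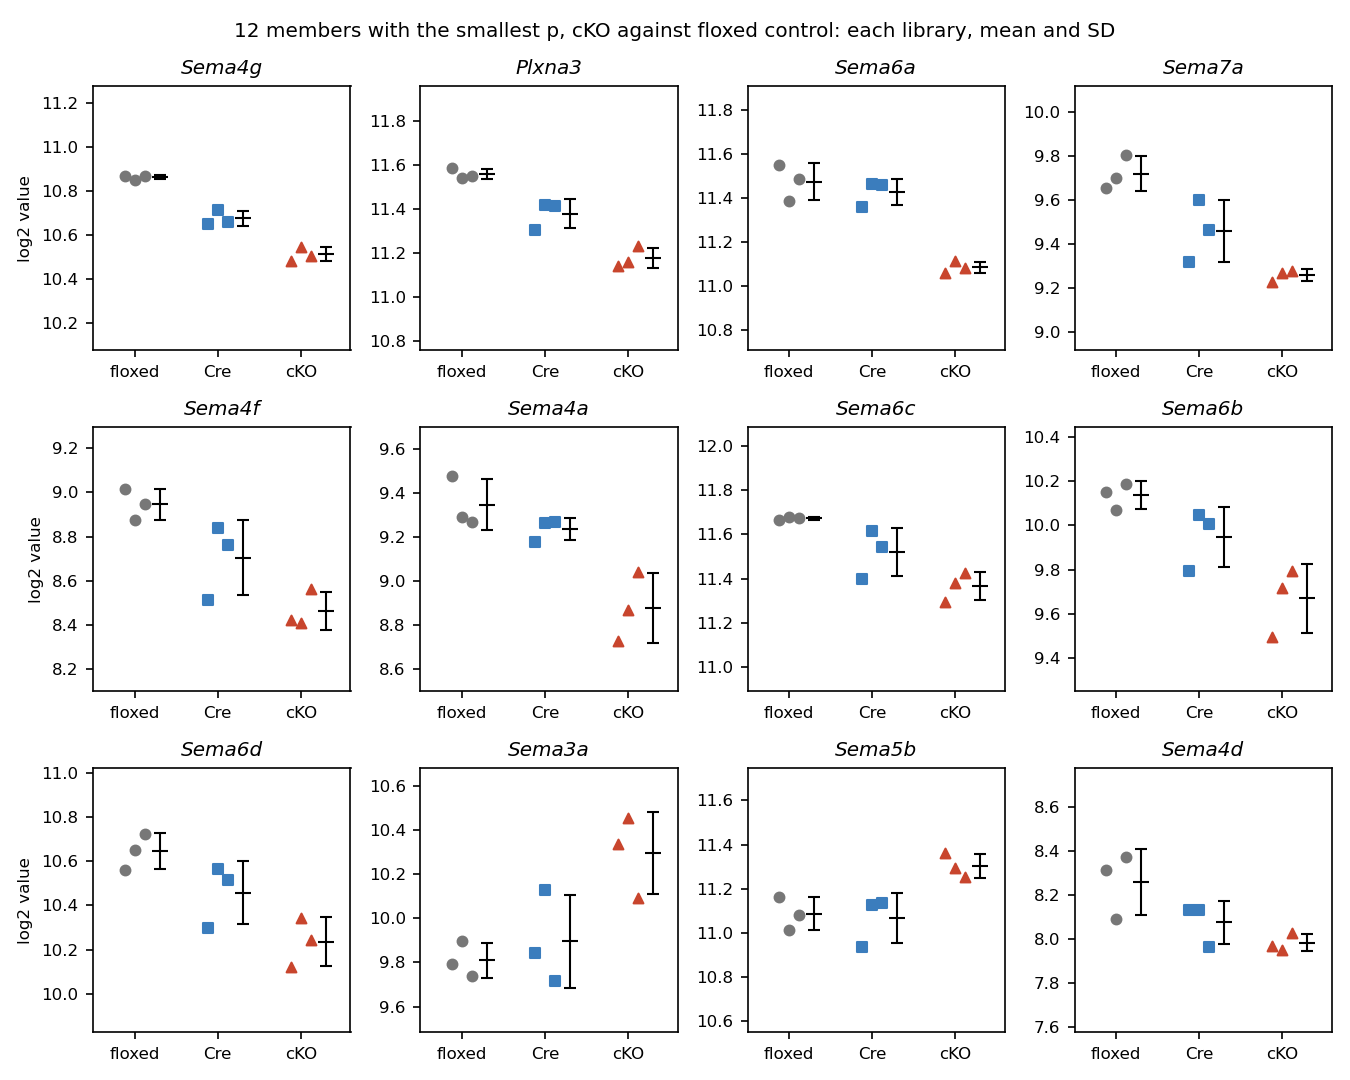
Log2 values (y axis) of the 12 members with the smallest p in the cKO against the floxed control, 1 panel each, with a point for each library and a bar for the mean and SD of 3 libraries. In 10 of the 12 panels the cKO points lie below the floxed control points, and in the panels of Sema3a and Sema5b they lie above them; each y axis spans 1.2 log2 units.

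Together, classes 4, 6 and 7 had 9 of 11 genes called lower and all 11 below the floxed control in every library, with a median log2 fold change of -0.39. Of all genes, 18.8% were called lower and 27.3% were below it in every library. Classes 3 and 5 had 0 of 9 called lower and 2 called higher, with a median of 0.11. Against the Cre control, 3 of the 11 were called lower (median -0.20) and 1 of the 9 higher (median 0.01). The mean of the Cre control was itself below that of the floxed control for all 11 (median -0.18), with 0 called. This grouping of classes was made after the values were seen, and the difference between the groups was not tested. In the same libraries, all 12 genes of a neuron list, among them Tubb3, Dcx and Map2, were called lower than in the floxed control (median -0.51), and 4 of them also in the comparison with the Cre control. The summed level of that list, as log2 of the summed linear values, was 17.26 to 17.37 in the floxed control, 16.91 to 17.21 in the Cre control and 16.74 to 16.91 in the cKO, with its lowest Cre control value in replicate 1. None of the 12 was at 0. Of 12 neural progenitor genes, 7 were called higher against the floxed control and 3 in the comparison with the Cre control, with summed levels of 16.67 to 16.74, 16.70 to 16.80 and 16.88 to 16.99. Of 10 erythroid genes, 6 were called higher against the floxed control and 4 in the comparison with the Cre control, with summed levels of 17.22 to 17.98, 17.48 to 17.69 and 17.86 to 18.81. Of 5 hindbrain genes tested, 3 were lower than in the floxed control and 0 than in the Cre control, with summed levels of 9.68 to 10.20, 9.40 to 9.75 and 9.60 to 9.67. Of 5 forebrain genes tested, 1 was lower against either control, with summed levels of 12.01 to 12.15, 11.92 to 12.24 and 11.67 to 11.71. The part of these shifts in the semaphorin results was not tested.

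Sema3a, at chr5:13125414-13602565, is a repellent secreted ligand of Nrp1 and the member that rose most. It was at 9.79, 9.90 and 9.74 in the floxed control, 9.84, 10.13 and 9.72 in the Cre control and 10.34, 10.46 and 10.09 in the cKO. The cKO libraries were all above the floxed control, and the Cre control replicate 2 was just above the lowest cKO library. Sema3a rose by 40.0% against the floxed control (log2 fold change 0.49 ± 0.11 SE, adjusted p = 0.00787, limma), and its difference from the Cre control was 0.40 ± 0.11 (adjusted p = 0.0516). That p was 0.0314 without the Cre control replicate 2, 0.0385 without the cKO replicate 3, and up to 0.169 in other settings. It was under 0.05 in 6 of the 19 alternative settings.

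The other class 3 genes did not pass the test against either control. Sema3d, Sema3e and Sema3c are on chromosome 5, as is Sema3a, and differed from the floxed control by 0.11, 0.00 and 0.12. Sema3b and Sema3g differed by 0.10 and 0.05. Sema3f, a ligand of Nrp2, was -0.14 from the floxed control (95% interval -0.28 to -0.01, adjusted p = 0.0843, limma), with the cKO libraries all lower. Its adjusted p was 0.0384 without the Cre control replicate 1, 0.0438 without the floxed control replicate 3, and up to 0.265 in other settings. For Sema3c and Sema3d the floxed control replicate 2 and the Cre control replicate 2 were the highest libraries of their groups, at 9.75 and 9.91 for Sema3c and at 7.89 and 7.92 for Sema3d.

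Class 5 semaphorins are transmembrane proteins with thrombospondin repeats. Sema5b, at chr16:35541145-35664732, was at 11.16, 11.01 and 11.08 in the floxed control, 10.93, 11.13 and 11.14 in the Cre control and 11.36, 11.29 and 11.25 in the cKO. All cKO libraries were above all control libraries. Sema5b rose by 16.2% against the floxed control (log2 fold change 0.22 ± 0.06 SE, adjusted p = 0.0203, limma), and its log2 difference from the Cre control was 0.24 ± 0.06 SE (adjusted p = 0.0423). The first call was lost without the floxed control replicate 2 or 3 or the cKO replicate 1 or 2 (adjusted p between 0.0510 and 0.0780). The second was lost without any 1 of 7 libraries, the exceptions being the floxed control replicate 2 and the Cre control replicate 1. Sema5a was at 9.25, 9.24 and 9.13 in the floxed control, 9.01, 9.74 and 9.59 in the Cre control and 9.36, 9.38 and 9.36 in the cKO. The Cre control libraries spanned the range of both other groups. Sema5a differed from the floxed control by 0.16 ± 0.15 (adjusted p = 0.422, 0.0354 without the Cre control replicate 1, and up to 0.631 in other settings). Set against the Cre control, Sema5a differed by -0.08 ± 0.15 (adjusted p = 0.743, and up to 0.992 in other settings). Without the Cre control replicate 1 it differed by -0.30 (adjusted p = 0.00913).

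**Figure D3:**
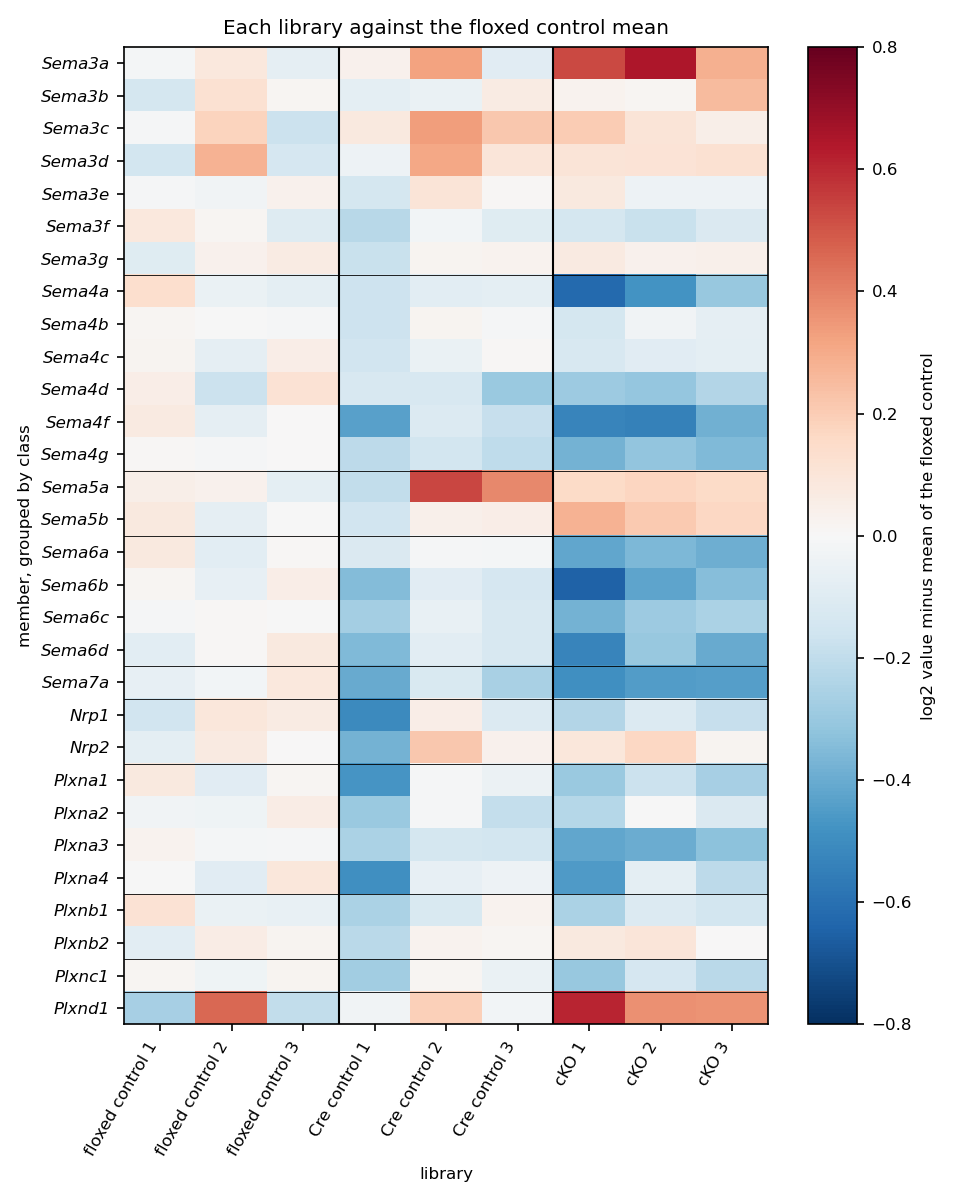
Heat map of the log2 value of each member tested (rows, by class) in each library (columns) minus the mean of the floxed control, blue for lower and red for higher. The rows of classes 4, 6 and 7 are blue in every cKO column, and the Cre control 1 column is bluer than the other Cre control columns.

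Of the receptors, 2 of the 10 tested were lower in the cKO than in the floxed control and none was higher, close to the 18.8% of all genes that were lower. Plxna3, a type A plexin that signals with neuropilins, lies at chrX:74329066-74344689. It was at 11.59, 11.54 and 11.55 in the floxed control, 11.30, 11.42 and 11.41 in the Cre control and 11.14, 11.16 and 11.23 in the cKO. The 3 genotypes did not overlap. Plxna3 fell by 23.2% against the floxed control (log2 fold change -0.38 ± 0.04 SE, adjusted p = 4.56e-04, limma), and its log2 difference from the Cre control was -0.20 ± 0.04 SE (adjusted p = 0.0246). Plxnc1, the receptor of Sema7a, was at 11.07, 11.02 and 11.07 in the floxed control, 10.77, 11.07 and 11.00 in the Cre control and 10.75, 10.92 and 10.84 in the cKO. The cKO libraries were below the floxed control, and the Cre control replicate 1 was among them. Plxnc1 fell by 14.1% against the floxed control (log2 fold change -0.22 ± 0.07 SE, adjusted p = 0.0355, limma). That call was lost without any 1 of the floxed control libraries or the cKO replicate 1 or 3 (adjusted p between 0.0570 and 0.129). The difference from the Cre control was -0.11 ± 0.07 (adjusted p = 0.320, and up to 0.680 in other settings). Without the Cre control replicate 1 it was -0.20 (adjusted p = 0.0217).

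The other type A plexins did not pass the test. Plxna1 was -0.24 from the floxed control with no overlap (adjusted p = 0.0951, limma), Plxna4 was -0.25 (adjusted p = 0.141) and Plxna2 was -0.12 (adjusted p = 0.242). Without the Cre control replicate 1, which enters their shared spread, Plxna1 and Plxna4 had adjusted p values of 0.00295 and 0.0393 against the floxed control. In other settings these p values reached 0.236 and 0.421. Plxna1 shares 970 exon bases with Gm26811 on the other strand, and the counting of strand is not given in the sources used here. Plxnb1 was -0.17 from the floxed control (adjusted p = 0.0989, 0.0452 without the Cre control replicate 1, and up to 0.357 in other settings). Plxnb2 was 0.06 from it (95% interval -0.09 to 0.21). The neuropilins did not pass the test. Nrp1 was at -0.18 (95% interval -0.45 to 0.10) and Nrp2 at 0.09 (-0.18 to 0.36) from the floxed control. Both intervals are wide, and in both genes the Cre control replicate 1 was the lowest of the 9 libraries, at 9.79 and 11.02.

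Plxnd1, the receptor of Sema3e and a gene of the embryonic endothelium, was at 10.26, 10.99 and 10.33 in the floxed control, 10.50, 10.72 and 10.51 in the Cre control and 11.14, 10.90 and 10.89 in the cKO. The floxed control replicate 2 lay inside the cKO range and the other controls lay below it. Plxnd1 differed from the floxed control by 0.45 ± 0.16 (adjusted p = 0.0542, limma) and from the Cre control by 0.40 ± 0.16 (adjusted p = 0.140). In other settings these p values reached 0.187 and 0.365. Without the floxed control replicate 2 the difference from the floxed control was 0.68 (adjusted p = 0.00163, limma, with 34.4% of all genes called). The difference from the Cre control stayed at 0.40, since this library is in neither group of that comparison and enters only the shared spread. Its adjusted p was 0.0273 (limma, with 7.7% of all genes called). In the same library the summed level of 12 endothelial genes was 13.22, against 12.88 and 13.07 in the other floxed control libraries. That list spanned 13.02 to 13.32 in the Cre control and 13.27 to 13.37 in the cKO, with 6 of 12 genes called higher than in the floxed control, 0 higher than in the Cre control and none at 0. The summed level of 12 genes of the meninges and head mesenchyme was 14.98 to 15.81 in the floxed control, highest in replicate 2, 15.31 to 16.02 in the Cre control and 16.04 to 16.10 in the cKO, with 8 of 12 higher against the floxed control, 0 of 12 in the comparison with the Cre control and none at 0. The part of these lists in the values of Plxnd1 and Sema3a was not tested.

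**Figure D4:**
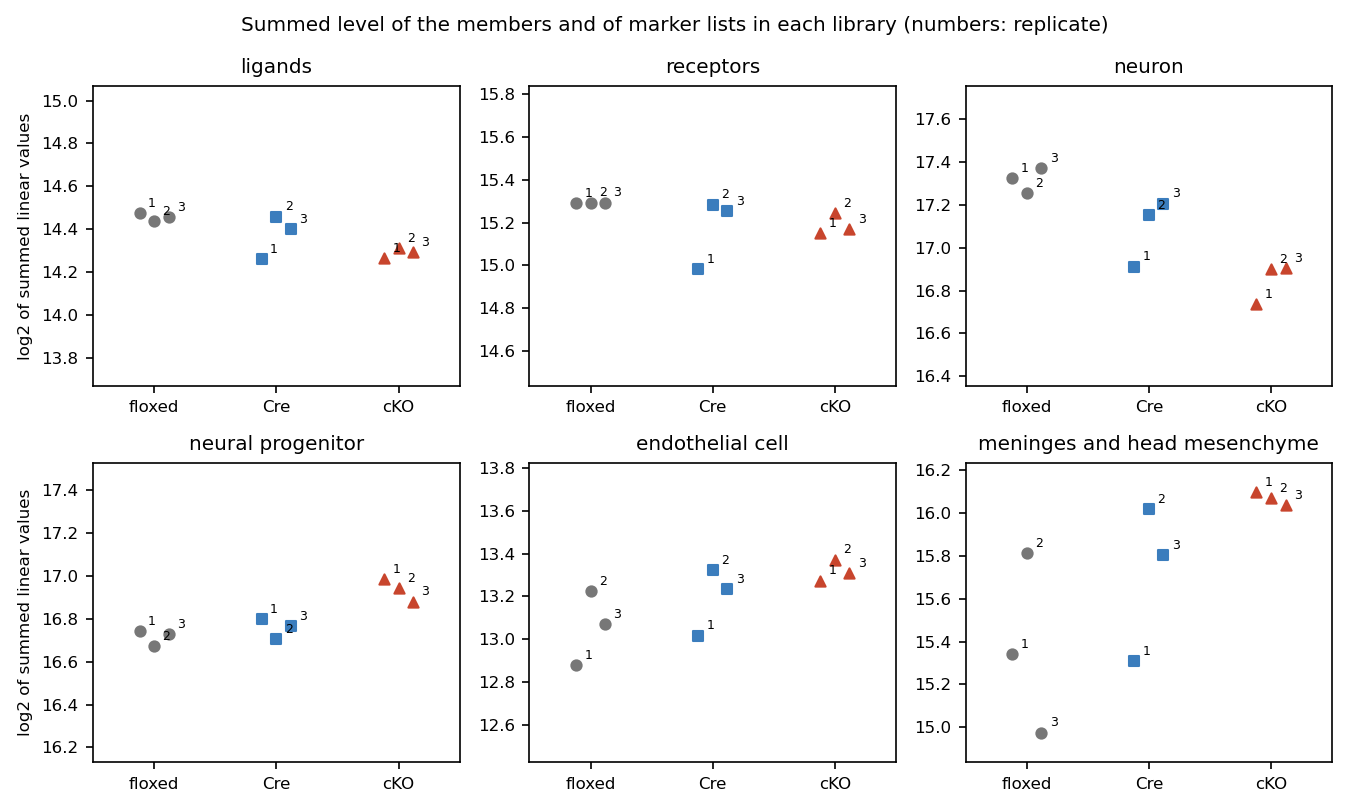
Log2 of the summed linear values (y axis, 1.4 units in each panel) of the ligands, the receptors and 4 marker lists in each library, with the replicate number beside each point. The cKO ligand sums, 14.26 to 14.31, lie below the floxed control sums, 14.44 to 14.48, and the Cre control replicate 1 is the lowest Cre control library for both ligands and receptors.

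Against the Cre control, 5 of the 30 members were called, where 9.72% of all genes were. Sema6a, Sema4a, Sema4g and Plxna3 were lower and Sema5b was higher, 4 and 1 of the 30, where 4.85% of all genes were called lower and 4.86% higher. None was changed by more than 1.5-fold as well (0.563% of all genes), 12 had an unadjusted p under 0.05 (29.3% of all genes), and the median over the members was -0.05, against 0.01 over all genes. That median was -0.13 without the Cre control replicate 1, 0.01 without replicate 2, -0.01 without replicate 3, -0.03 without the cKO replicate 1 and -0.08 without the cKO replicate 2. With the libraries centred on their medians, 4 members were lower and 1 higher, where 5.92% of all genes were lower and 3.79% higher. The number of calls was 13 without the Cre control replicate 1 (23.5% of all genes), and 1 or 2 without the Cre control replicate 2 or 3 or the cKO replicate 1 or 2, where Sema4a, Sema4g, Plxna3 and Sema5b each lost their call. The Cre control and the floxed control had 0 members called (limma, where 0.057% of all genes were called), 8 at an unadjusted p under 0.05 (17.5% of all genes), and 1 without the Cre control replicate 1. In that comparison 25 of the 30 members had a negative difference, with a median of -0.11, where 50.4% of all genes were negative, with a median of 0.00. Without the Cre control replicate 1, 18 of the 30 were negative and the median was -0.03. Both comparisons share the Cre control libraries, and both comparisons of the cKO share the cKO libraries, so their values are not independent.

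Compared per kb of the longest protein-coding transcript annotated, on the scale of log2 value minus log2 length in kb, the most abundant receptors in the floxed control were Plxnb2 at 10.34 ± 0.08 (SD, n = 3), Plxna1 at 9.80 ± 0.08 and Plxnb1 at 9.74 ± 0.10. The last 2 do not differ beyond their spread. The order takes the values as not already scaled to length, which the sources used here do not state. The SD covers the spread of the libraries and not the choice of transcript. Among ligands Sema6c led at 9.66 ± 0.01, followed by Sema4c at 9.07 ± 0.06, with Sema3f at 8.87 ± 0.09 and Sema5b at 8.87 ± 0.07 level with each other. The lowest ligands were Sema3d at 4.95 ± 0.24 and Sema3e at 4.69 ± 0.03. In the cKO the order near the top was not the same: Sema5b, at 9.09 ± 0.06, was above Sema4c, at 8.97 ± 0.03, and Sema6a was at 8.31 ± 0.03 where it had been at 8.70 ± 0.08. Among pairs of ligand and receptor, Sema7a and Plxnc1 were both lower in the cKO than in the floxed control. In that comparison Sema4d was lower with Plxnb1 not past the threshold, and Sema3a was higher with Nrp1 not past it. Against the Cre control none of these genes was called.

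**Figure D5:**
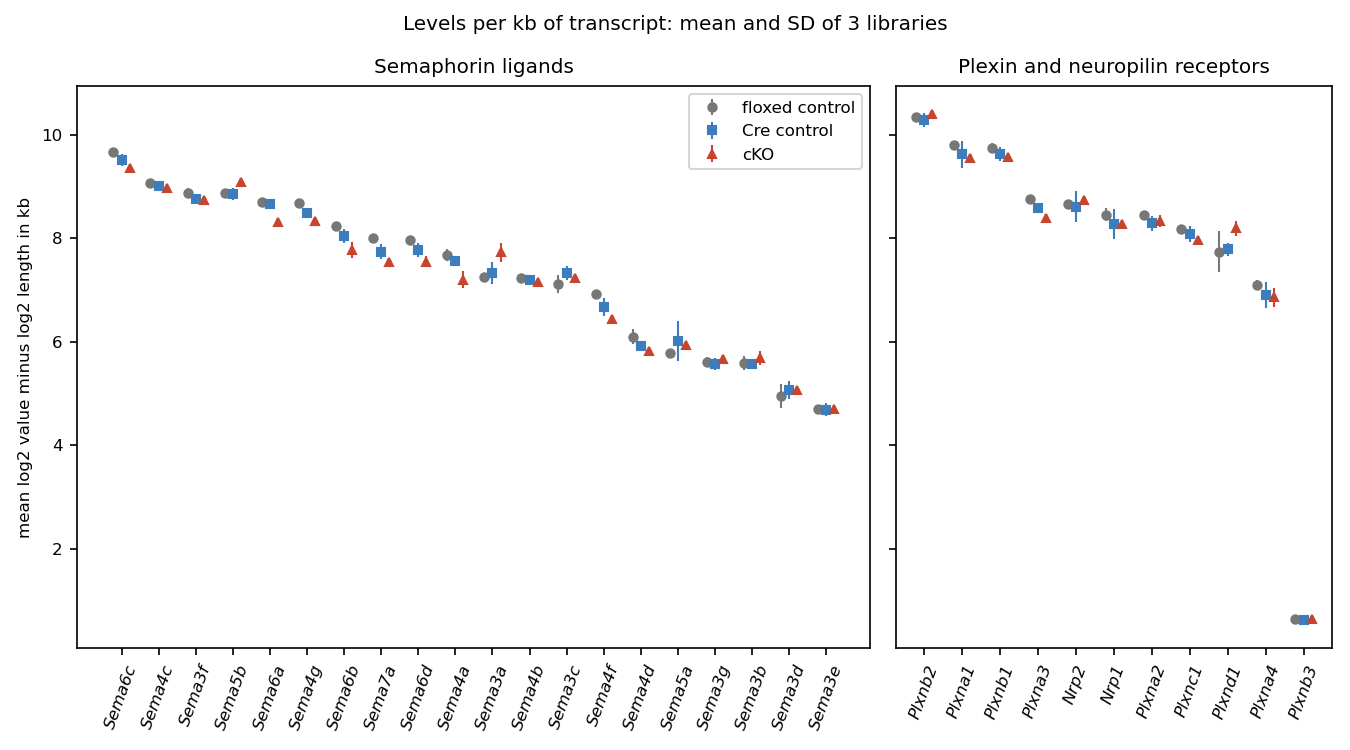
Log2 value minus log2 transcript length in kb (y axis) for the 20 ligands and the 11 receptors (x axis, in the order of the floxed control), with points for the mean and bars for the SD of 3 libraries of each genotype. Levels run from 9.66 for Sema6c to 4.69 for Sema3e among ligands in the floxed control, and Plxnb3 stands apart at 0.65.

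Of 60 other genes of the pathway, 57 were tested, of which 14 rose and 15 fell in the cKO relative to the floxed control; relative to the Cre control, 2 rose and 4 fell. These were 24.6% and 26.3% of the 57, where 19.5% of all genes rose and 18.8% fell, and in the comparison with the Cre control 10.5% of the 57, close to the 9.72% of all genes. Among the co-receptors and partners, 5 of 12 tested were lower and 5 higher than in the floxed control, and 3 were lower and 0 higher than in the Cre control. L1cam, an adhesion molecule that joins Nrp1 in responses to Sema3a, was at 11.77, 11.70 and 11.79 in the floxed control, 11.14, 11.61 and 11.66 in the Cre control and 10.86, 11.05 and 11.16 in the cKO. The Cre control replicate 1 fell just below the highest cKO library and the floxed control was clear of it. L1cam fell by 39.6% against the floxed control (log2 fold change -0.73 ± 0.12 SE, adjusted p = 0.00198, limma), and it differed from the Cre control by -0.45 (adjusted p = 0.0482). Chl1, its close homolog, had a log2 fold change of -0.74 (adjusted p = 0.00204), and its difference from the Cre control was -0.46 (adjusted p = 0.0485). Cdk5r1, the neuronal activator of the kinase Cdk5, was at -0.61 (adjusted p = 0.00143) and -0.35 (adjusted p = 0.0465).

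Of 21 intracellular transducers tested, 8 were lower and 2 higher against the floxed control, and of 18 small GTPases and their regulators 2 were lower and 4 higher. The called shares were 47.6% of the transducers and 33.3% of the GTPase list, where 38.3% of all genes were called. In the comparison with the Cre control 1 of the 21 and 2 of the 18 were called, or 4.76% and 11.1%, where 9.72% of all genes were. Of 6 proteases that cut semaphorins or their receptors, 3 were higher than in the floxed control and none lower. Of all genes, 19.5% were higher and 18.8% lower in that comparison. Against the Cre control 0 of the 6 were called. Among these proteases Pcsk6, a proprotein convertase, differed from the floxed control by 0.96 on the log2 scale (adjusted p = 3.37e-04, limma), and it was -0.05 from the Cre control (adjusted p = 0.791). The Cre control was itself above the floxed control by 1.01 (adjusted p = 0.0128).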

How the data were processed

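Poly-A RNA from 9 midbrains was sequenced by the authors, 3 per genotype. The authors deposited 1 table of log2 values. The values show that libraries were scaled to each other and low genes shrunk; the transformation is not named in the sources used here. The submitters' processing notes name FastQC 0.10.1, kallisto 0.46.1, DESeq2 and mm10, without roles. The table holds no read counts, so the depth and counting error are unknown, and no count test was used. Of 27360 rows, 5764 had no gene name. Of repeated symbols the highest row was kept, and genes that reached 1 cpm (linear values) in 3 or more libraries were tested. Genotype means were fitted to all 9 libraries with limma 3.58.1 in R 4.3.3 (eBayes with a trend, two-sided moderated tests, Benjamini-Hochberg over 14029 genes), and checked on simulated data. Called genes had an adjusted p under 0.05. Full values are given for the 12 members with the smallest p against the floxed control, since no member changed by more than 1.5-fold, and for pathway genes past both limits, most by fold change only; Sema5a, Plxnc1 and Plxnd1 were added after their values were seen. The members, the pathway lists and the marker lists were chosen with earlier results of these data known. Positions and lengths are from GENCODE M21 (GRCm38). Percent changes are on the linear scale of the shrunk values. Alternatives were other filters, scalings, libraries, thresholds, a replicate block, each library left out in turn and, chosen after seeing the data, a correction for GC content and length and a Y-linked covariate.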

Additional observations from a re-analysis of the deposited data

How the results depend on the processing

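No fold change of the 12 members given in full reversed in any of 19 settings that were run for them: of 456 values recomputed, 405 kept their side of the threshold, 35 were no longer past it and 16 were newly past it. Many of these settings cannot move a member's fold change, so no reversal was possible in them. They are the filters, the summed rows, the fit without a trend, the fit to only the 6 libraries and the replicate block. The same holds for leaving out a library of the group not compared. Of the 13 members called against the floxed control, 10 were called in all 19 settings, the exceptions being Plxnc1, Sema4d and Sema5b, and of the 5 called against the Cre control, 1 was. With each library left out in turn, the calls numbered 10 to 18 against the floxed control, 1 to 13 against the Cre control and 0 to 1 between the controls, while the share of all genes called moved too, from 25.7% to 46.7% and from 1.69% to 23.5% for the first pair. With only the 6 libraries compared, 1 was called against the Cre control (3.11% of all genes). With a fold change over 1.5 also required, 0 were called against either control. At an unadjusted p under 0.05, 12 were past the threshold against the Cre control and 8 between the controls. With a covariate of Y-linked genes, an alternative chosen after seeing the data, 8 were called against the Cre control and 19 against the floxed control (15.5% and 42.7% of all genes). The cause of these shifts was not tested. With the replicate number as a block, 14, 7 and 0 members were called for cKO and floxed control, cKO and Cre control, and the controls in that order (40.5%, 12.6% and 0.0642% of all genes). Same-numbered libraries of different genotypes had correlations between -0.03 and 0.26, and 7 of 9 libraries correlated best on average with their own number, a hint from the data and not the design, so the numbers were not taken as pairs. Precision is limited by 3 fetuses per genotype and by an unknown depth.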
